A study of Mus musculus with 15 samples.

Results

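The genes described here are 34 mouse genes of the lysosome and of its transcriptional control, measured in embryonic stem (ES) cells kept in 5 media. They were taken from a fixed list of names: 3 factors of the MiT/TFE family, the Tfe3 regulator folliculin, 9 cathepsins, 7 glycosidases, 6 other lumenal enzymes, activators and lipid carriers, 7 membrane proteins and 1 autophagy receptor. All 34 had a probe set carrying that symbol alone, among 19937 genes tested; for Mitf, which had 2 such sets, the one with the higher mean was used. The rule itself uses no measured difference, but the names were chosen with earlier results of these data known.

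Total RNA was hybridised to 15 Affymetrix whole-transcript arrays, 3 for each medium, and the values are log2 signals. All arrays came from a single ES cell line adapted to 2i, the pair of inhibitors CHIR99021 and PD0325901. That line carries a biotin and FLAG tag knocked in at Ctnnb1, which codes for beta-catenin, and also expresses the ligase BirA (Ctnnb1-BioFLneo;BirA), so every group, the DMSO control included, shares these alleles. The group called 2iLIF was held long term in 3 µM CHIR99021, an inhibitor of the kinase GSK3, with 1 µM PD0325901, an inhibitor of the ERK-activating kinase MEK, and the cytokine LIF. In the other groups one or more of these agents had been removed for 24 hours: 2i kept both inhibitors without LIF, CHIR kept 3 µM CHIR99021 alone, PD03 kept 1 µM PD0325901 alone, and DMSO kept none of the 3. The DMSO group is thus an acute withdrawal from 2iLIF, and "higher" and "lower" below compare groups of arrays and do not describe a course in time.

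Lysosomes are acidic compartments in which hydrolases break down proteins, glycans and lipids delivered by endocytosis and autophagy. Tfeb, Tfe3 and Mitf are basic helix-loop-helix leucine zipper factors that bind E-boxes in the promoters of many lysosome genes, and the kinase mTORC1 phosphorylates them at the lysosome surface and holds them in the cytoplasm. Folliculin, the product of Flcn, acts on the Rag GTPases in that step. In mouse ES cells folliculin keeps Tfe3 out of the nucleus, and loss of folliculin delays exit from the naive state. An mRNA level says nothing about where these factors are in the cell.

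The E-box variant bound by the family, TCACGTG, was looked for in the promoters of the members because it is the sequence feature they are known for. RefSeq promoter windows of the GRCm38.p6 assembly, each covering 250 bases before to 50 bases after a gene's start, were at hand for 30 of the 34 members and were not matched for Asah1, Ctsh, Ctsb and Npc1. TCACGTG, searched on both strands (as CACGTGA on the other), was present in 9 of the 30 members (30%), against 5.35% of 15613 tested genes with a promoter and 3.77% of all 32851 windows of this length. The letters CACGTG, which lie inside TCACGTG, were present in 11 of 30 members (36.7%), against 9.5% of those tested genes. The palindrome TCACGTGA, which holds TCACGTG on both strands, was present in 5 members (16.7%), against 1.52%. These matches are descriptions of letters and not evidence of binding, and the members were listed as lysosome genes, a class known for this element.

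The 6 windows below show how many copies the promoters hold and how close they lie to the gene's start; capitals mark TCACGTG or CACGTGA, and each is written 5′ to 3′ on the gene's strand. Lamp1, an abundant glycoprotein of the lysosomal membrane, holds 4 copies at chr8:13159091-13159159 (plus strand). Mcoln1, a calcium-releasing channel, holds 2 at chr8:3500439-3500488 (plus strand). Ctsa, protective protein cathepsin A, holds 2 at chr2:164833758-164833786 (plus strand), on either side of the start. Cln3, a membrane protein mutated in Batten disease, holds 2 at chr7:126583343-126583393 (minus strand). Gla, alpha-galactosidase A, holds 2 at chrX:134601185-134601241 (minus strand), and Glb1, acid beta-galactosidase, holds 1 at chr9:114401021-114401043 (plus strand).
Lamp1: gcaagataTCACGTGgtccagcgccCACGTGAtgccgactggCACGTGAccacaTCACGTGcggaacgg
Mcoln1: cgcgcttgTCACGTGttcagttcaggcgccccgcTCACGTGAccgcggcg
Ctsa: tgTCACGTGAtgcagatgcTCACGTGAcc
Cln3: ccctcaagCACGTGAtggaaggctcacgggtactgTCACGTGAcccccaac
Gla: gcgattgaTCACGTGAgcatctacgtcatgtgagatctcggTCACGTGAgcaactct
Glb1: cttctgagTCACGTGgcctacag

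The media were checked with 4 genes. Axin2, a target of beta-catenin, was higher in CHIR than in DMSO by 1.45 (log2), and Dusp6 and Spry4, feedback genes of the ERK pathway, were lower in PD03 than in DMSO (-1.72 and -2.00). Socs3, a LIF target, was higher in 2iLIF than in 2i by 1.64. Array medians over all probe sets lay between 6.98 and 7.06. The 5 ES cell markers Pou5f1, Sox2, Nanog, Zfp42 and Dppa5a averaged 12.10 to 12.13 on the 2iLIF arrays and 11.66 to 11.77 on the DMSO arrays. The 12 endoderm markers averaged 6.36 to 6.50 in 2iLIF and 6.35 to 6.46 in DMSO, the 8 fibroblast markers 6.37 to 6.50 and 6.44 to 6.54, and the 9 macrophage markers 6.10 to 6.20 and 6.11 to 6.18. Against DMSO, 4 ES cell markers were higher in 2iLIF (largest difference 0.97), 3 in 2i, 2 in CHIR and 4 in PD03, and none was lower. Among endoderm markers 1 was higher and 1 lower in 2iLIF, and 1 was higher in PD03. Among fibroblast markers 1 was lower in each of the 4 media (-0.36 in 2iLIF). The shares of all genes called are given with each comparison below. One gene of the macrophage list, Laptm5, which codes for a lysosomal membrane protein, stood at 10.88 in 2iLIF and 10.27 in DMSO and was higher in all 4 media than in DMSO. Of the other 8 macrophage markers none was higher against DMSO; Itgam was lower in 2iLIF (-0.64) and 2i (-0.35), and Fcer1g in 2iLIF (-0.22) and PD03 (-0.16). The part of these markers in the results was not tested. In bulk RNA, fewer cells of a type and less RNA per cell cannot be told apart.

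Across the 5 media the 2iLIF arrays had the highest group mean for 21 of the 34 members, 2i for 6, CHIR for 0, PD03 for 4 and DMSO for 3. The lowest group mean was in DMSO for 16 members, and in 2iLIF, CHIR and PD03 for 6 each. In 10 members (Tfeb, Mitf, Lamp1, Lamp2, Ctsa, Ctsb, Npc1, Npc2, Ppt1 and Tpp1) all 3 DMSO arrays lay below the other 12, a pattern held by 4.26% of all genes. In 2 members, Tfe3 and Gusb, all 3 DMSO arrays lay above the others, as in 5.18% of all genes.

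**Figure D1:**
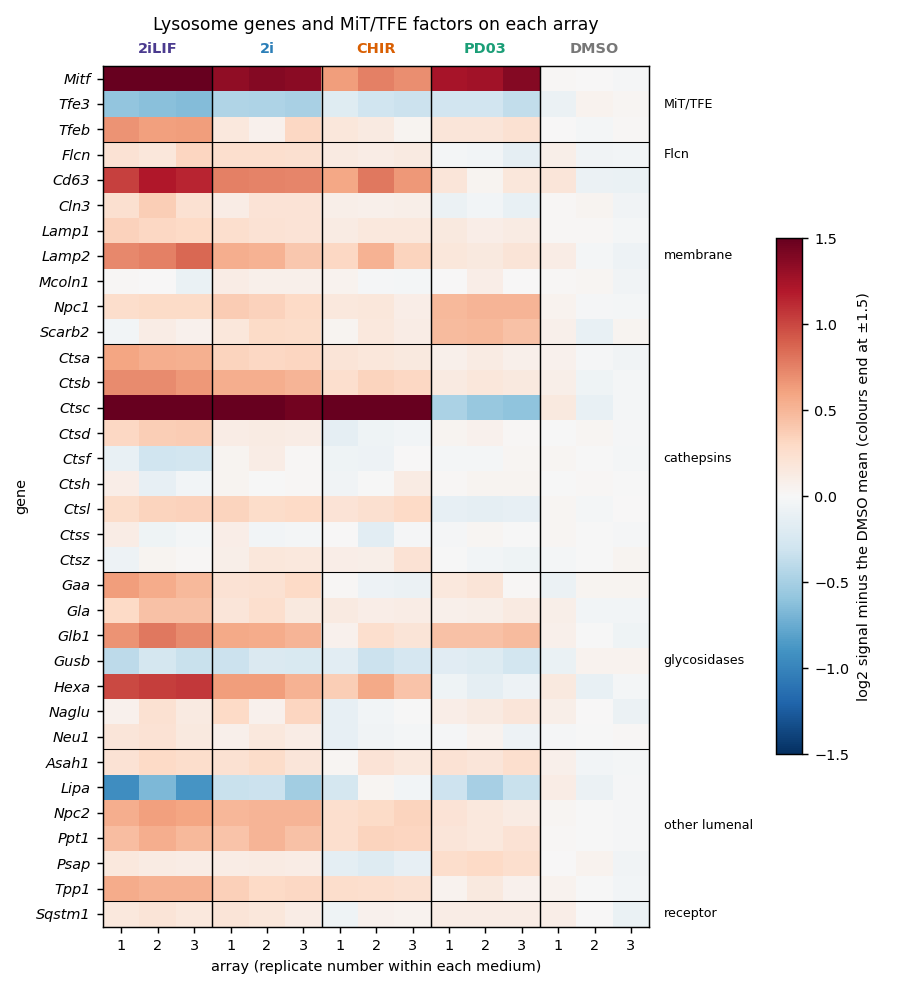
Log2 signal of each of the 34 genes on each of the 15 arrays (columns, 2iLIF, 2i, CHIR, PD03 and DMSO from left to right), shown in colour as the difference from the mean of the 3 DMSO arrays, with colours ending at ±1.5. Most genes are above the DMSO mean on the 2iLIF and 2i arrays, Ctsc and Mitf most of all, and Tfe3, Lipa and Gusb are below it.

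Of the 3 factors, Mitf, on chromosome 6, moved most. Its log2 signal was 10.05, 10.19 and 10.07 on the 2iLIF arrays, 9.36, 9.41 and 9.39 in 2i, 8.66, 8.78 and 8.73 in CHIR, 9.27, 9.29 and 9.40 in PD03, and 8.05, 8.03 and 8.01 in DMSO. Only 2i and PD03 overlapped, and each of these had all its arrays above CHIR and below 2iLIF. Mitf was 4.21-fold higher in 2iLIF than in DMSO (log2 difference 2.07 ± 0.05 SE, limma adjusted p = 2.1e-14), 2.56-fold in 2i (1.36 ± 0.05, adjusted p = 6.8e-12), 1.61-fold in CHIR (0.69 ± 0.05, adjusted p = 2.6e-08) and 2.45-fold in PD03 (1.29 ± 0.05, adjusted p = 3.1e-11). Against 2i it was 1.65-fold higher in 2iLIF (0.72 ± 0.05, adjusted p = 3.7e-08). The second probe set of Mitf, with a mean signal of only 4.79, was higher in 2iLIF than in DMSO (0.52, adjusted p = 1.28e-05) and gave 0.04 (adjusted p = 0.757) for 2i, 0.10 (adjusted p = 0.371) for CHIR and 0.02 (adjusted p = 0.908) for PD03 against DMSO. The Mitf differences between 2i, CHIR or PD03 and DMSO therefore rest on 1 probe set. With both sets averaged, Mitf was higher than in DMSO by 1.30 in 2iLIF, 0.70 in 2i, 0.40 in CHIR and 0.65 in PD03, all still passing the test.

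Tfeb, on chromosome 17, had signals of 8.97, 8.92 and 8.93 in 2iLIF, 8.46, 8.37 and 8.61 in 2i, 8.47, 8.44 and 8.34 in CHIR, 8.49, 8.49 and 8.53 in PD03, and 8.31, 8.28 and 8.32 in DMSO. The 2iLIF arrays stood above all the rest, and all 2i, CHIR and PD03 arrays were above DMSO. The 2i arrays overlapped both CHIR and PD03, and the CHIR arrays were below those of PD03. Tfeb was higher in 2iLIF than in 2i (0.46 ± 0.05, adjusted p = 1.5e-05) and than in DMSO (0.64 ± 0.05, adjusted p = 6.5e-08). Its smaller differences from DMSO passed the test in 2i (0.18 ± 0.05, adjusted p = 0.019) and PD03 (0.20 ± 0.05, adjusted p = 0.014), but not in CHIR (0.11 ± 0.05, adjusted p = 0.15). The call in 2i was lost without 2i replicate 3 or DMSO replicate 2 (highest adjusted p = 0.103), and that in PD03 without PD03 replicate 3 (adjusted p = 0.057).

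Tfe3, on chromosome X, ran the other way. It had 10.21, 10.18 and 10.16 in 2iLIF, 10.35, 10.34 and 10.31 in 2i, 10.62, 10.51 and 10.48 in CHIR, 10.52, 10.52 and 10.44 in PD03, and 10.72, 10.86 and 10.84 in DMSO. The 2iLIF arrays were lowest and the DMSO arrays highest, with CHIR and PD03 overlapping between 2i and DMSO. Tfe3 was lower than in DMSO in 2iLIF (-0.62 ± 0.05, adjusted p = 2.0e-08), 2i (-0.47 ± 0.05, adjusted p = 1.1e-06), CHIR (-0.26 ± 0.05, adjusted p = 0.00055) and PD03 (-0.31 ± 0.05, adjusted p = 0.00013). The step between 2iLIF and 2i (-0.15 ± 0.05, adjusted p = 0.041) lost its call whichever of the 6 arrays was left out.

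Flcn, on chromosome 11, was higher than in DMSO in 2iLIF (0.24 ± 0.05, adjusted p = 0.00082) and 2i (0.25 ± 0.05, adjusted p = 0.0009). It did not pass the test in CHIR (0.13 ± 0.05, adjusted p = 0.071) or PD03 (-0.07 ± 0.05, adjusted p = 0.42), and 2iLIF and 2i differed by -0.01 ± 0.05. All 9 arrays with CHIR99021 had Flcn signals of 8.86 to 9.08, above the 8.62 to 8.84 of the 6 arrays without it. Fnip1, a folliculin partner, was higher than in DMSO in 2iLIF (0.50), 2i (0.33) and CHIR (0.27), and Fnip2, the related partner, was lower in 2iLIF (-0.29), 2i (-0.38), CHIR (-0.33) and PD03 (-0.28). The Fnip1 call in CHIR was lost without DMSO replicate 2 (adjusted p = 0.0579).

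**Figure D2:**
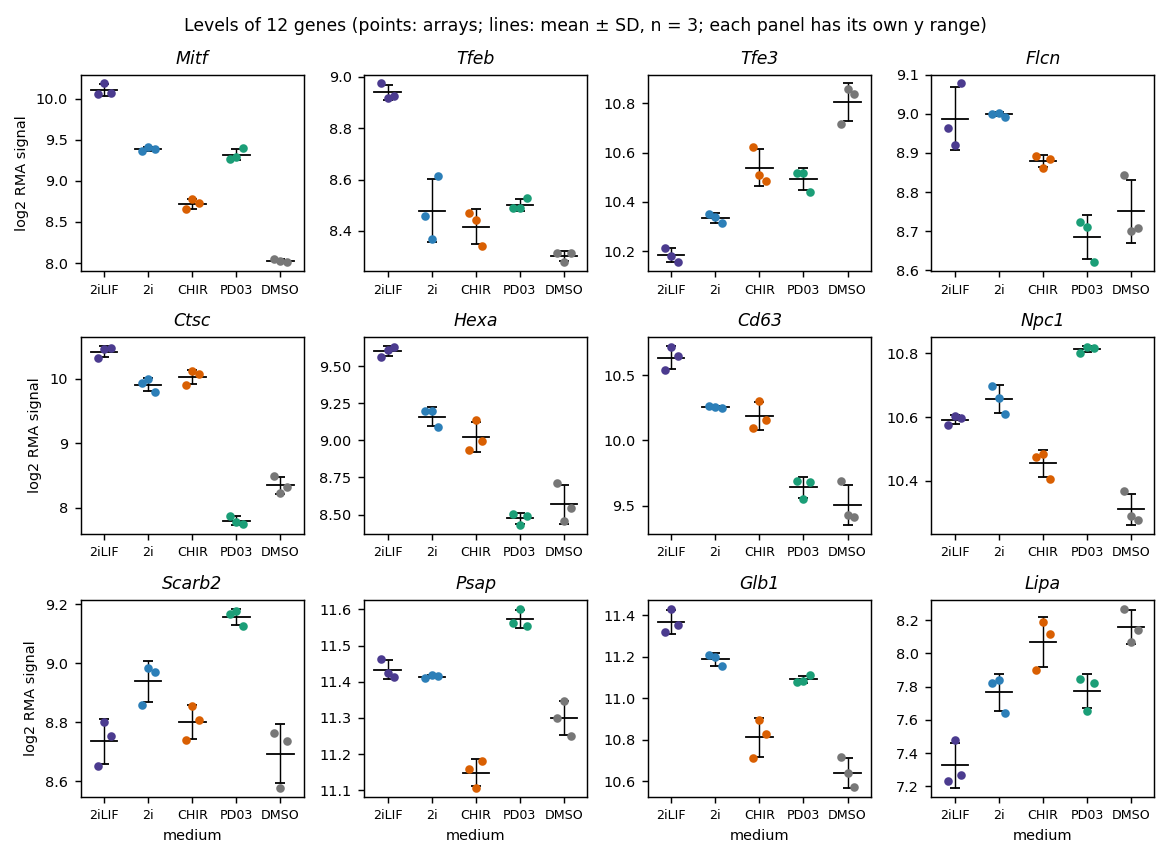
Log2 signal of 12 members in the 5 media (x axis, 2iLIF to DMSO); points are single arrays, lines are group means ± SD (n = 3), and each panel has its own y scale. Mitf and Tfeb are highest in 2iLIF and Tfe3 in DMSO, Ctsc splits the media with CHIR99021 from those without, and Npc1, Scarb2 and Psap are highest in PD03.

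With both inhibitors kept and LIF removed, 27 of the 34 members were higher in 2i than in DMSO and 3 were lower, with 4 not passing the test. Of all 19937 genes, 13.6% were called higher and 11.9% lower in this comparison, at a limma adjusted p under 0.05. Since 28 of the members had a mean signal of at least 8, a comparison with the 8631 genes at that signal is closer, and among those 23.1% were higher and 17.4% lower. The median difference of the members was 0.23 on the log2 scale, against 0.02 for all genes, and 2 members, Ctsc and Mitf, were at least 2-fold higher. In 30 members the 2i and DMSO arrays did not overlap, as in 36% of all genes. This share, like all those given for array patterns and non-overlap, was counted over all genes, weak ones included. None was counted at a signal of at least 8, the closer comparison. With each array centred on its median, 24 members were higher and 3 lower. All genes then numbered 2601 higher and 2188 lower, against 2713 and 2375 as deposited.

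Among the cathepsins, 6 of 9 were higher in 2i and none was lower. Ctsc, a dipeptidyl peptidase that activates serine proteases of immune cells, had the largest difference of any member. Its signal was 9.94, 9.995 and 9.79 in 2i and 8.49, 8.23 and 8.32 in DMSO, a 2.96-fold difference (1.56 ± 0.07, adjusted p = 2.5e-10). The groups were far apart relative to the spread within each. The cysteine protease Ctsb was higher by 0.53 ± 0.04 (adjusted p = 9.2e-08) and Ctsl, another cysteine protease, by 0.30. Ctss and Ctsh had mean signals of 5.53 and 5.55 over the 15 arrays, levels at or above those of 18.8% and 19.3% of genes, and did not pass the test.

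Of the 7 glycosidases, 6 were higher in 2i than in DMSO and Gusb was lower. Hexa, the alpha subunit of beta-hexosaminidase, which breaks down gangliosides, had 9.20, 9.20 and 9.09 in 2i and 8.71, 8.45 and 8.54 in DMSO. The arrays did not overlap, and the difference was 0.59 ± 0.06 (adjusted p = 2.2e-06). Glb1, which removes terminal galactose, was higher by 0.55 ± 0.05 (adjusted p = 4.6e-07), with 11.21, 11.20 and 11.15 in 2i and 10.72, 10.64 and 10.57 in DMSO. Gusb, beta-glucuronidase, had 7.68, 7.78 and 7.77 in 2i and 7.90, 8.05 and 8.05 in DMSO (-0.26 ± 0.06, adjusted p = 0.0024).

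Of the 6 other lumenal proteins, 5 were higher and Lipa was lower. Npc2, which carries cholesterol inside the lysosome, was higher by 0.51, and Ppt1 and Tpp1, a thioesterase and a peptidase lost in childhood forms of neuronal ceroid lipofuscinosis, by 0.46 and 0.32. Lipa, the acid lipase that frees cholesterol from its esters, had 7.82, 7.84 and 7.64 in 2i and 8.27, 8.07 and 8.14 in DMSO (-0.39 ± 0.09, adjusted p = 0.0025). The membrane proteins showed 6 of 7 higher and none lower. Cd63, a tetraspanin of late endosomes, had 10.26, 10.26 and 10.25 in 2i and 9.69, 9.43 and 9.41 in DMSO (0.75 ± 0.07, adjusted p = 9.2e-07). Lamp2, a structural glycoprotein of the membrane, was higher by 0.49 and Npc1, the cholesterol exporter, by 0.34. The remaining membrane protein, Mcoln1, differed by 0.09 and did not pass the test. Sqstm1, the autophagy receptor p62, was higher by 0.16.

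Leaving out single arrays of 2i or DMSO cost 7 of the 30 calls, those of Tfeb, Ctsd, Ctsz, Naglu, Neu1, Psap and Sqstm1 (highest adjusted p between 0.0823 and 0.163), all of them small differences.

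With LIF present as well, 24 members were higher in 2iLIF than in DMSO and 4 were lower, against 16.7% and 18% of all genes called, 34.7% in all (28.8% and 26.6% of genes at a signal of at least 8). The median difference was 0.30, against 0.01 for all genes, and the arrays did not overlap in 28 members (41.3% of all genes). With each array centred on its median the members numbered 25 higher and 4 lower, and all genes 4346 higher and 2854 lower, against 3334 and 3582 as deposited. Of these comparisons this one held the most members at least 2-fold apart, namely Mitf, Ctsc, Cd63 and Hexa. The comparison shares its DMSO arrays with that of 2i, so the values of both are not independent.

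Ctsc had 10.32, 10.46 and 10.48 in 2iLIF and 8.49, 8.23 and 8.32 in DMSO, 4.21-fold apart (2.07 ± 0.07, adjusted p = 4.3e-12). Cd63 was 2.18-fold higher (1.13 ± 0.07, adjusted p = 3.6e-09), with 10.54, 10.71 and 10.65 in 2iLIF, and Hexa 2.04-fold higher (1.03 ± 0.06, adjusted p = 1.6e-09), with 9.56, 9.61 and 9.63. For all 3 genes the 2iLIF arrays were also above every other array of the series. Lamp2 was higher by 0.78 ± 0.06 (adjusted p = 4.6e-08) and Glb1 by 0.73 ± 0.05 (adjusted p = 7.5e-09). Lower in 2iLIF were Lipa (-0.83 ± 0.09, adjusted p = 9.8e-07), Tfe3, Gusb (-0.33 ± 0.06, adjusted p = 0.00016) and Ctsf, a minor cysteine cathepsin (-0.23 ± 0.05, adjusted p = 0.0011). Only the call of Sqstm1 was lost when an array was left out, namely DMSO replicate 3 (adjusted p = 0.0626).

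With both inhibitors present, LIF was the difference in medium between 2iLIF and 2i. Of the members, 13 were higher (38.2%) and 5 lower (14.7%), against 4.56% and 7.66% of all genes (7.09% and 13% at a signal of at least 8). The 14.7% lower was near the 13%. The median difference was 0.05 against -0.01 for all genes, and none of these calls reached 2-fold. After each array was centred on its median the counts were 14 higher and 2 lower, and those of all genes 1162 and 983, against 910 and 1527 as deposited. The arrays did not overlap in 23 members (26% of all genes). Mitf and Tfeb, given above, had 2 of the 3 largest differences. Ctsc was higher by 0.51 ± 0.07 (adjusted p = 0.00016), Hexa by 0.44 ± 0.06 (adjusted p = 0.00013), Cd63 by 0.38 ± 0.07 (adjusted p = 0.0018), and Gaa, the acid glucosidase that breaks down glycogen, by 0.31 ± 0.05 (adjusted p = 0.00087).

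Lipa stood out in the opposite direction, with 7.23, 7.48 and 7.27 in 2iLIF and 7.82, 7.84 and 7.64 in 2i (-0.44 ± 0.09, adjusted p = 0.0023). All 2iLIF arrays were below all 2i arrays, and both were below DMSO. Ctsf had 7.31, 7.12 and 7.14 in 2iLIF and 7.46, 7.53 and 7.44 in 2i (-0.29 ± 0.05, adjusted p = 0.00057). Scarb2, the membrane receptor that carries beta-glucocerebrosidase to lysosomes, was lower (-0.20), as was Ctsz (-0.15). The calls of Tfe3, Ctsb, Ctsz, Gla, Glb1 and Scarb2 were each lost in at least 3 of the 6 fits that left out a single array.

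**Figure D3:**
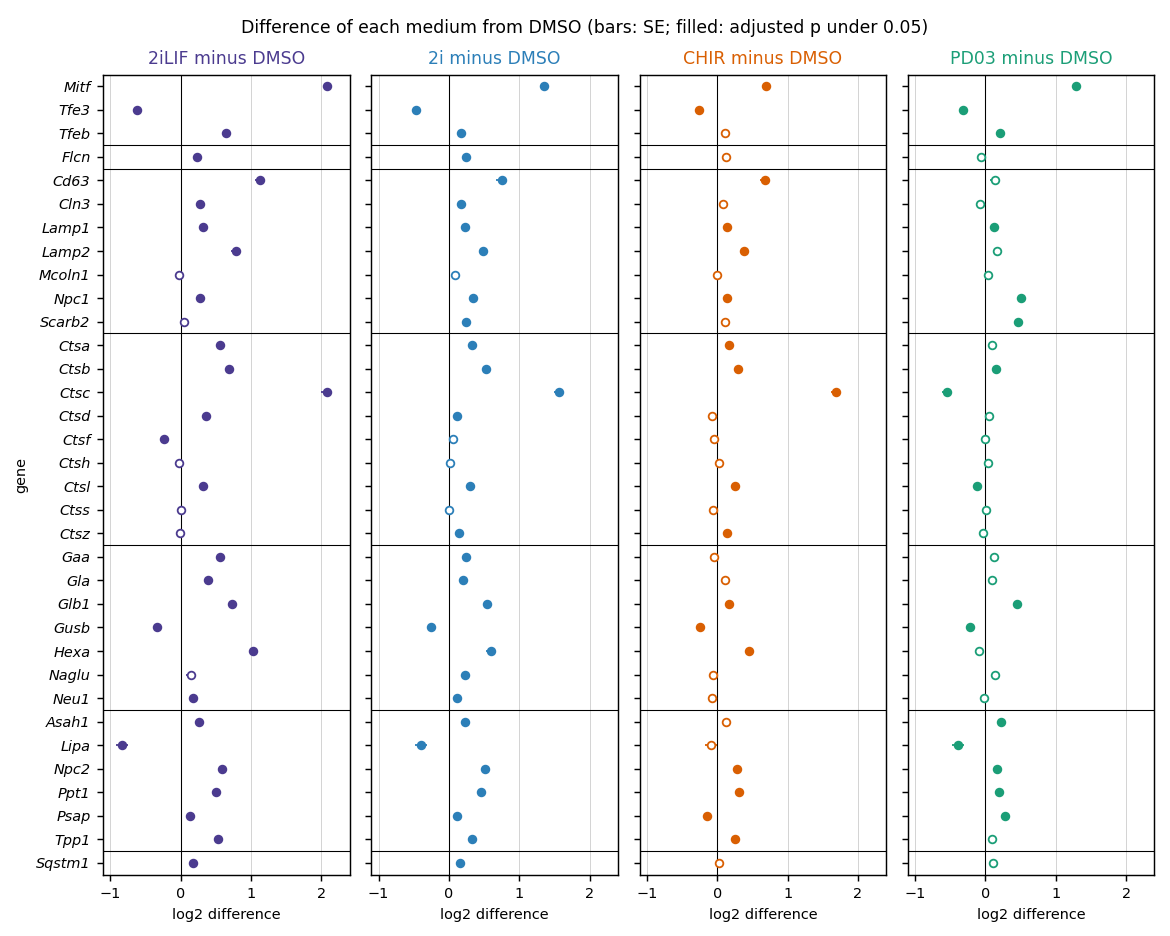
Log2 difference from DMSO (x axis) of each of the 34 genes in 2iLIF, 2i, CHIR and PD03, with bars of 1 standard error from limma; filled points passed the test at an adjusted p under 0.05. Ctsc is far to the right in the 3 media with CHIR99021 and to the left of 0 in PD03, while Mitf is to the right in all 4.

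With single inhibitors the counts were smaller. CHIR had 15 members higher (44.1%) and 3 lower (8.82%) than DMSO, against 10% and 10.8% of all genes (18.9% and 14.6% at a signal of at least 8). Its median was 0.12 against -0.01 for all genes. PD03 had 11 higher (32.4%) and 5 lower (14.7%), against 8.67% and 8.15% (14.2% and 12.9%), with a median of 0.10 against 0.00. The 14.7% lower in PD03 was near the 12.9%. With centred arrays CHIR had 18 higher and 3 lower members, and all genes numbered 2623 and 1548, against 1998 and 2146 as deposited. PD03 then had 9 higher and 5 lower members, and all genes numbered 1364 and 1775, against 1729 and 1625 as deposited. Non-overlapping arrays were seen in 23 members for CHIR (31.9% of all genes) and 21 for PD03 (31.4%). Both comparisons use the same 3 DMSO arrays.

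Of the 9 cathepsins, 5 were higher and none lower in CHIR than in DMSO, and 1 was higher and 2 were lower in PD03 than in DMSO. Ctsc had 9.91, 10.11 and 10.07 in CHIR, 7.87, 7.78 and 7.74 in PD03, and 8.49, 8.23 and 8.32 in DMSO. The CHIR arrays overlapped those of 2i and were below those of 2iLIF, and the PD03 arrays were below every DMSO array. Relative to DMSO, Ctsc was 3.21-fold higher in CHIR (1.68 ± 0.07, adjusted p = 2.2e-10) and 1.46-fold lower in PD03 (-0.55 ± 0.07, adjusted p = 5.6e-05). Ctsl was higher in CHIR by 0.25 and lower in PD03 (-0.13 ± 0.04, adjusted p = 0.022). The PD03 calls of Ctsl, Lamp1, Ctsb and Gusb were each lost on leaving out at least 1 array (highest adjusted p 0.0619 to 0.0989).

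Other members higher in CHIR than in DMSO were Cd63 (0.68 ± 0.07, adjusted p = 4.7e-06), Hexa (0.45 ± 0.06, adjusted p = 5.9e-05), Lamp2 (0.38 ± 0.06, adjusted p = 0.00028) and Ppt1 (0.31 ± 0.04, adjusted p = 2.3e-05). In PD03 the same genes differed from DMSO by 0.13, -0.09, 0.17 and 0.19, of which only Ppt1 passed the test. Lower in CHIR were Tfe3, Gusb (-0.24 ± 0.06, adjusted p = 0.0048) and Psap, the precursor of the saposin activators (-0.15 ± 0.04, adjusted p = 0.0054). The CHIR calls of Ctsz and Glb1 were lost on leaving out at least 1 array (highest adjusted p 0.212 and 0.115).

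PD0325901 alone went with higher Npc1, Scarb2, Glb1 and Psap. Npc1 had 10.80, 10.82 and 10.82 in PD03 and 10.37, 10.29 and 10.28 in DMSO (0.50 ± 0.04, adjusted p = 9.6e-08). Scarb2 had 9.17, 9.18 and 9.13 in PD03 and 8.76, 8.58 and 8.74 in DMSO (0.46 ± 0.05, adjusted p = 1.6e-05). For both genes the PD03 arrays were the highest of the whole series, above 2iLIF as well. Glb1 was higher by 0.45 ± 0.05 (adjusted p = 7.3e-06), Psap by 0.27 ± 0.04 (adjusted p = 3.7e-05) and Asah1, acid ceramidase, by 0.22 ± 0.05 (adjusted p = 0.0046). Lipa was lower in PD03 than in DMSO (-0.39 ± 0.09, adjusted p = 0.0046) and gave -0.09 ± 0.09 in CHIR (adjusted p = 0.56).

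The direct contrast of CHIR with PD03, added after the data had been seen, gave calls both ways, as it did for all genes. Of the 34, 13 were higher (38.2%) and 8 lower (23.5%) in CHIR, against 12.6% and 13.2% of all genes (23.7% and 18.8% at a signal of at least 8). The 23.5% lower was near the 18.8%. The arrays did not overlap in 24 members (41.6% of all genes). The median was 0.00 against -0.01 for all genes. With centred arrays the members numbered 14 and 5, and all genes 3827 and 1748, against 2515 and 2634 as deposited. Higher in CHIR were Ctsc, 4.70-fold (2.23 ± 0.07, adjusted p = 6.7e-12), Hexa (0.55 ± 0.06, adjusted p = 6.4e-06), Cd63 (0.54 ± 0.07, adjusted p = 3.3e-05) and Ctsl (0.38 ± 0.04, adjusted p = 1.1e-06). Lower in CHIR were Mitf (-0.60 ± 0.05, adjusted p = 9.3e-08), Psap (-0.42 ± 0.04, adjusted p = 2.2e-07), Npc1 (-0.36 ± 0.04, adjusted p = 2.6e-06), Scarb2 (-0.36 ± 0.05, adjusted p = 0.00014) and Glb1 (-0.28 ± 0.05, adjusted p = 0.0005). With both probe sets averaged, Mitf gave -0.26 (adjusted p = 0.000542). Tfeb and Tfe3 gave -0.08 (adjusted p = 0.27) and 0.05 (adjusted p = 0.51). Of the 21 calls, 9 were lost on leaving out at least 1 array: Lamp2, Ctsb, Ctsd, Ctsz, Gaa, Naglu, Npc2, Lipa and Ppt1.

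**Figure D4:**
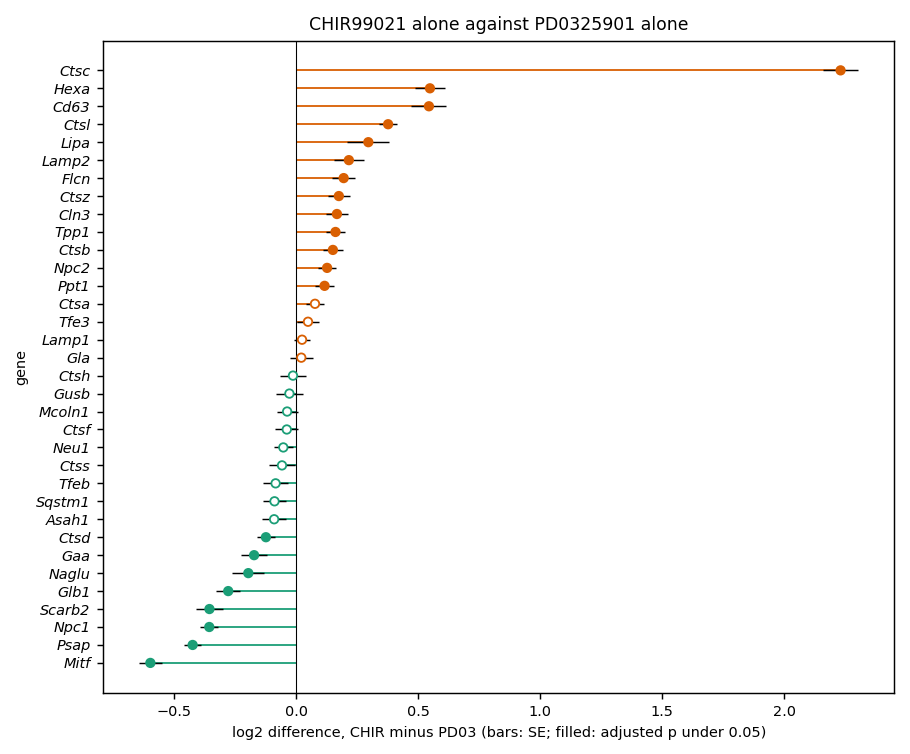
Log2 difference between CHIR and PD03 (x axis, CHIR minus PD03) for each of the 34 genes, ordered by size, with bars of 1 standard error; filled points passed the limma test. Ctsc lies far beyond the others at 2.23, and Mitf is at the other end at -0.60.

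A related pattern was looked for over all 15 arrays, which include the CHIR and PD03 arrays of that contrast. In 12 members (Lamp2, Ctsa, Ctsb, Ctsc, Ctsl, Hexa, Npc2, Cd63, Cln3, Ppt1, Tpp1 and Flcn) the 9 arrays with CHIR99021 were all above the 6 without, as in 5.1% of all genes. In 5 members (Mitf, Glb1, Npc1, Psap and Sqstm1) the 9 arrays with PD0325901 were all above the other 6, as in 2.69% of all genes. Of the genes in these 2 patterns, Ctsa and Sqstm1 were not called in CHIR against PD03 (limma adjusted p = 0.151 and 0.202). Against DMSO, Cln3 and Flcn of the first pattern were not called in CHIR (limma adjusted p = 0.216 and 0.0706). Sqstm1 of the second was not called in PD03 (limma adjusted p = 0.14). Psap had 11.46, 11.42 and 11.41 in 2iLIF, 11.41, 11.42 and 11.41 in 2i, 11.16, 11.11 and 11.18 in CHIR, 11.56, 11.60 and 11.56 in PD03, and 11.30, 11.35 and 11.25 in DMSO. Its CHIR arrays were the lowest and its PD03 arrays the highest.

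Each inhibitor was also compared in the presence of the other. In 2i against CHIR, PD0325901 was kept rather than removed beside CHIR99021, both without LIF. Here 12 members were higher (35.3%) and 2 lower (5.88%), against 5.7% and 3.76% of all genes (9.18% and 6.31% at a signal of at least 8). The 5.88% lower was near the 6.31%. With centred arrays the members numbered 9 and 2, and all genes 716 and 932, against 1137 and 750 as deposited. The largest differences were in Mitf (0.66 ± 0.05, adjusted p = 1.6e-07), Glb1 (0.38 ± 0.05, adjusted p = 0.00011), Gaa (0.30, adjusted p = 0.0019) and Psap (0.27 ± 0.04, adjusted p = 0.00011). With both Mitf probe sets averaged its difference was 0.30 (adjusted p = 0.000457). Tfe3 was lower (-0.20 ± 0.05, adjusted p = 0.0088), as was Lipa (-0.30, adjusted p = 0.035), whose call, like those of Ctsa, Naglu and Ppt1, was lost on leaving out at least 1 array. Ctsc gave -0.12 ± 0.07 (adjusted p = 0.37), Tfeb 0.06 (adjusted p = 0.54) and Flcn 0.12 (adjusted p = 0.15).

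In 2i against PD03, CHIR99021 was kept rather than removed beside PD0325901, both without LIF. Here 15 members were higher (44.1%) and 4 lower (11.8%), against 10.1% and 9.44% of all genes called, 19.5% in all (18.7% and 14.7% at a signal of at least 8). With centred arrays the members numbered 15 and 3, and all genes 2307 and 1470, against 2008 and 1883 as deposited. Ctsc was 4.32-fold higher (2.11 ± 0.07, adjusted p = 2.5e-11), Hexa was higher by 0.69 ± 0.06 (adjusted p = 9.3e-07), Cd63 by 0.61 ± 0.07 (adjusted p = 1.6e-05), Ctsl by 0.43 ± 0.04 (adjusted p = 4.1e-07) and Flcn by 0.31 ± 0.05 (adjusted p = 0.00019). Lower were Scarb2 (-0.22 ± 0.05, adjusted p = 0.0094), Npc1 (-0.16 ± 0.04, adjusted p = 0.0062), Psap and Tfe3 (-0.16 each). Mitf gave 0.07 ± 0.05 (adjusted p = 0.4). Calls of Tfe3, Lamp1, Neu1 and Scarb2 were lost on leaving out at least 1 array.

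Whether the inhibitors add up on the log2 scale was tested as the interaction, the effect of CHIR99021 in the presence of PD0325901 minus its effect in its absence. It was called for 4 members, 1 higher and 3 lower, against 0.933% and 1.1% of all genes (1.3% and 1.87% at a signal of at least 8). With centred arrays it was called for 0 and 2 members, and for 115 and 208 of all genes, against 186 and 220 as deposited. Mitf fell short of the sum (-0.63 ± 0.06, adjusted p = 5.7e-05): CHIR99021 went with 0.69 more without PD0325901 and 0.07 more with it. This value rests on 1 probe set: the second gave -0.08 (adjusted p = 0.831), and the average of both -0.35 (adjusted p = 0.00865). Npc1 also fell short (-0.30 ± 0.05, adjusted p = 0.0051), with CHIR higher than DMSO by 0.14 and 2i lower than PD03 (-0.16). Scarb2 (-0.33 ± 0.08, adjusted p = 0.041) and Ctsc (0.43 ± 0.10, adjusted p = 0.047) were near the threshold, and their calls were lost on leaving out 9 and 10 of the 12 arrays, one at a time. The interaction term did not pass the test in the other 30 members. The median standard error over all genes was 0.072 for the interaction and 0.0509 for the pairwise differences, so small departures in those members may have been missed.

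The members with TCACGTG in their promoter were set beside those without, as a description. In 2i against DMSO, 8 of 9 with the letters were higher and 0 lower, with a median of 0.23, and 16 of 21 without them were higher and 3 lower, with a median of 0.25. In 2iLIF against DMSO the counts were 7 higher and 0 lower of 9 (median 0.36) and 14 higher and 4 lower of 21 (median 0.24). The genes that differed most, Ctsc, Mitf, Cd63 and Hexa, are all in the group without the letters in this window, and Lamp1, with 4 copies, was higher in 2iLIF than in DMSO by 0.32. In CHIR against PD03, 1 of 9 with the letters was higher and 4 lower, and 11 of 21 without them were higher and 3 lower. Among those lower with the letters, the calls of Ctsd, Gaa and Naglu were lost with centred arrays and in some leave-one-out fits, and that of Glb1 was kept. Among those higher without them, the calls of Lamp2, Ctsz, Npc2, Lipa and Ppt1 were lost on leaving out at least 1 array.

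Related gene lists, chosen with earlier results of these data known, were counted in the same fits against DMSO. The shares of all genes to read them against are 16.7% higher and 18% lower in 2iLIF, 13.6% and 11.9% in 2i, 10% and 10.8% in CHIR, and 8.67% and 8.15% in PD03. At a signal of at least 8 they are 28.8% and 26.6%, 23.1% and 17.4%, 18.9% and 14.6%, and 14.2% and 12.9%. Of 14 measured subunits of the vacuolar ATPase, the proton pump that acidifies lysosomes, 11 were higher in 2iLIF (78.6%), 8 in 2i (57.1%), 4 in CHIR (28.6%) and 2 in PD03 (14.3%), and none was lower. Its accessory subunit Atp6ap2 was higher by 0.54, 0.39 and 0.28 in the first 3. The 14.3% of subunits higher in PD03 was near the 14.2% of genes at a signal of at least 8. Of the 4 CHIR calls, 3 were lost in some fit that left out 1 array. Atp6ap2 was lost without DMSO replicate 2 (adjusted p = 0.0511). Atp6v1e1 was lost in 3 of the 6 such fits (highest adjusted p = 0.11) and Atp6v1g1 in 5 (highest adjusted p = 0.132). Both PD03 calls were lost in some fit without 1 array, Atp6v0a1 without PD03 replicate 2 (adjusted p = 0.0722) and Atp6v1g1 in 5 of the 6 such fits (highest adjusted p = 0.123). In 2iLIF the calls of Atp6v0d1 and Atp6v1b2, and in 2i those of Atp6v0e and Atp6v1b2, were also lost in some such fits. Of 20 other hydrolases and activators, 6 were higher and 3 lower in 2iLIF, 6 and 2 in 2i, 2 and 3 in CHIR (10% and 15%, near the shares of all genes), and 4 and 0 in PD03. The 30% higher in 2iLIF was near the 28.8% of genes at a signal of at least 8. Manba, beta-mannosidase, was higher by 0.43, 0.44 and 0.50 in 2iLIF, 2i and CHIR, and Arsa, arylsulfatase A, was lower in the same 3 media (-0.72, -0.49 and -0.60). In PD03 those genes gave -0.07 and -0.12 and did not pass the test. Hydrolase calls lost in some fit without 1 array were Man2b1 and Ids in 2iLIF and Galns and Gm2a in 2i. Fuca1 in CHIR was lost in 4 of the 6 such fits, and Galns and Pla2g15 in PD03 in 3 each. Some calls in each of the lists below were also lost in such fits.

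Of 15 other membrane proteins, 5 were higher and 3 lower in 2iLIF, 5 and 1 in 2i, 3 and 2 in CHIR, and 2 and 2 in PD03. The CHIR shares (20% and 13.3%) and the PD03 shares (13.3% each way) were near those of genes at a signal of at least 8. Ctns, the cystine exporter, was higher by 0.59 in 2iLIF, 0.46 in 2i and 0.37 in CHIR. Of 16 genes that deliver enzymes to lysosomes, 6 were higher and 2 lower in 2iLIF, 6 and 2 in 2i, 3 and 1 in CHIR, and 1 and 1 in PD03. The PD03 shares, 6.25% each way, were below those of all genes, as was the 12.5% lower in 2iLIF. The 18.8% higher in CHIR was near the 18.9% of genes at a signal of at least 8. Sort1, the sorting receptor sortilin, was lower in 2iLIF (-1.44), 2i (-0.93) and CHIR (-0.81), and gave -0.04 in PD03.

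Of 21 genes of nutrient sensing and mTORC1, 5 were higher and 3 lower in 2iLIF, 3 and 3 in 2i, 3 and 3 in CHIR, and 0 and 3 in PD03. In 2i and CHIR that is 14.3% each way, near the shares of all genes. The 14.3% lower in PD03 was near the 12.9% of genes at a signal of at least 8. The 23.8% higher in 2iLIF was below the 28.8% of such genes. Rragd, one of the Rag GTPases through which folliculin acts on the MiT/TFE factors, was lower in PD03 (-0.57) and higher in CHIR (0.14, adjusted p = 0.0343), a call lost in 5 of the 6 fits that left out 1 array. It gave -0.06 in 2iLIF and -0.03 in 2i, and had an interaction of 0.39 (adjusted p = 0.00296). Of 21 autophagy genes, 11 were higher and 6 lower in 2iLIF, 8 and 3 in 2i, 5 and 4 in CHIR, and 6 and 1 in PD03. The 28.6% lower in 2iLIF was near the 26.6% of genes at a signal of at least 8. The CHIR shares, 23.8% and 19%, were near the 18.9% and 14.6% of such genes. Ulk1, the kinase that starts autophagy, was higher by 0.90 in 2iLIF, 0.68 in 2i, 0.47 in CHIR and 0.63 in PD03, with an interaction of -0.42 (adjusted p = 0.0039). Its relative Ulk2 was lower in 2iLIF (-0.86), 2i (-0.45) and CHIR (-0.41), and gave -0.03 in PD03.

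**Figure D5:**
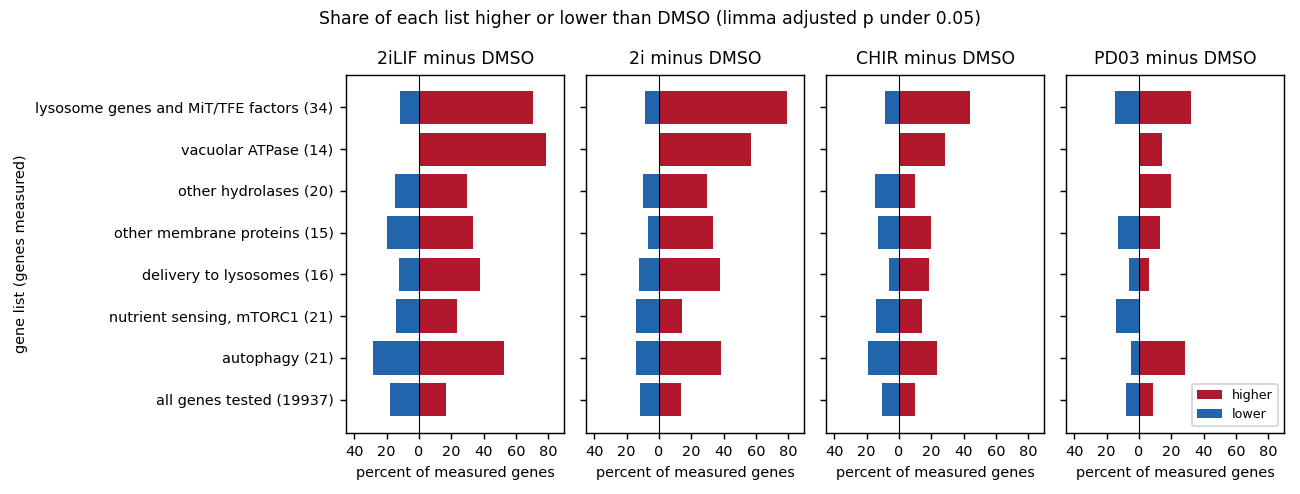
Percent of measured genes (x axis) called higher (red, to the right) and lower (blue, to the left) than DMSO in 2iLIF, 2i, CHIR and PD03 (panels), for the 34 members, 6 related lists and all 19937 genes (rows, measured genes in brackets). The members and the vacuolar ATPase subunits reach furthest to the right in 2iLIF and 2i, with 24 and 27 of 34 members and 11 and 8 of 14 subunits higher.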

How the data were processed

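The values are log2 signals deposited by the authors for 34760 probe sets on 15 Affymetrix arrays; per the submitters' processing notes they were made with RMA, which background-corrects, quantile-normalises and summarises probes, and their range was 3.74 to 13.99. Quantile scaling gives every array one distribution and hides any shift common to most genes, and RMA compresses differences of weak signals. No detection calls were used. Probe sets were named through the platform annotation: 21640 carried 1 symbol, 1321 several and 11799 none, and 21553 of the first matched a RefSeq gene. Per gene, the probe set with the highest mean over 15 arrays was kept (19937 genes). Groups came from the sample titles, 3 arrays each; the labels do not say whether replicates were separate cultures; the p-values therefore reflect array-to-array spread, which may be technical, and the number of arrays limits the precision.

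Differences were fitted in R 4.3.3 with limma 3.58.1 (lmFit, eBayes) over all genes and all 15 arrays, two-sided, with Benjamini-Hochberg adjustment over all genes of each comparison and calls at an adjusted p under 0.05. The 8 planned comparisons and CHIR against PD03, added later, make 9. Members and lists were chosen with earlier results of these data known. For each comparison up to 6 called members in each direction, and always Tfeb, Tfe3, Mitf and Flcn, are given in full; of each other list, up to 3 called genes are named; per-array values of other members and background counts were added after the values were seen. Of 155 genes on the lists, 145 were measured. The fit was tested on simulated data. Alternatives were centred arrays, a replicate block, a filter at a log2 signal of 6, limma's trend and robust options, other probe-set rules, fits to the compared arrays alone, and leaving out each array.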

Additional observations from a re-analysis of the deposited data

Results flagged for a closer look

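For 4 members the effect of CHIR99021 differed between cells with and without PD0325901, by the limma interaction term. The term was -0.63 for Mitf, -0.30 for Npc1, -0.33 for Scarb2 and 0.43 for Ctsc, in log2 units. CHIR99021 went with a Mitf difference of 0.07 in the presence of PD0325901 and 0.69 in its absence, with -0.16 and 0.14 for Npc1, -0.22 and 0.11 for Scarb2, and 2.11 and 1.68 for Ctsc. The calls of Mitf and Npc1 were kept whichever of the 12 arrays was left out, and those of Scarb2 and Ctsc were not. The Mitf term rests on 1 probe set: it was -0.08 (adjusted p = 0.831) in the second, weak set and -0.35 (adjusted p = 0.00865) with both averaged.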

How the results depend on the processing

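No call of a member reversed its direction under any alternative. Over the 6 alternatives other than leaving out single arrays, 1760 of 1818 verdicts on single members were unchanged, 45 lost a call and 13 gained one; with single arrays left out, 1888 of 2040 were unchanged, 144 lost a call and 8 gained one. Pairing by replicate number was examined after each gene's group mean had been subtracted from its values. What remained correlated between -0.36 and 0.34 over 30 pairs of same-numbered arrays, 10 of them above 0.1. Among arrays of other media, 4 of 15 correlated best with one of their own number. Differently numbered arrays reached 0.44 (2iLIF 1 with DMSO 2). The numbers thus gave no consistent pairing, and the cause of the shared spread was not tested. Counts that moved by over 1.5 times were the members lower in 2iLIF than in 2i (5), which were 2 with centred arrays and 3 in a fit to the compared arrays; those lower in 2i than in CHIR (2), 1 with the replicate block and 1 in a fit to the compared arrays; those with a higher interaction (1), 0 with the replicate block, 0 with centred arrays, 0 in a fit to the 12 arrays and 2 with trend and robust settings; and those lower in CHIR than in PD03 (8), 5 with centred arrays. Leaving out 1 array gave 10 to 13 members higher and 2 to 4 lower for 2iLIF against 2i, 23 to 24 and always 4 for 2iLIF against DMSO, 21 to 23 and always 3 for 2i against DMSO, 13 to 17 and always 3 for CHIR against DMSO, and 9 to 15 and 3 to 4 for PD03 against DMSO. It gave 10 to 12 and 1 to 2 for 2i against CHIR, 13 to 14 and 3 to 4 for 2i against PD03, 0 to 1 and 2 to 3 for the interaction, and 9 to 13 and 5 to 7 for CHIR against PD03. The cause of these moves was not tested, beyond the fewer arrays that leave-one-out fits hold. Averaging both Mitf probe sets reduced the size of 7 of its 8 called differences by over 1.5 times, with every call kept. Centring shifted differences by at most 0.06 (log2). Ctsh and Ctss were at low signal, where a difference may not be measurable on these arrays.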
